A study of Mus musculus with 2 samples.

Results

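Ccr2+Folr2+ intermediate macrophages are the cells of this adipose tissue macrophage (ATM) dataset that carried a transcript of the recruited programme and one of the resident programme at once. They were selected on counts of unique molecular identifiers (UMIs, 1 per captured transcript). A cell with 200 to 3500 detected genes and at most 10% mitochondrial UMIs was kept, and a kept cell was a member if it held at least 1 UMI of *Ccr2*, at least 1 of *Folr2*, none of *Lyve1* or *Timd4* and fewer than 10 of *Lyz1*. There were 439 members among 4385 kept cells, out of 7622 barcodes in all. On control diet (CD) 284 of 2364 kept cells were members, and after high fat diet (HFD) 155 of 2021 were.

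ATMs came from the epididymal fat of male C57BL/6JOlaHsd mice, 8 to 12 weeks of age, that either stayed on CD or received HFD overnight. No mouse carried a modified allele, and none of the groups used here received an antibody or drug. Fat from 3 mice per diet was digested and pooled, and CD45+Lin-Ly6Clow/-F4/80+ cells were sorted into 1 droplet library per diet. With 1 library per diet, values that differed by diet also differed by library, and no test of diet was possible. The intervals given here are 95% intervals that cover counting error alone.

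Ccr2 is the chemokine receptor with which monocytes leave the bone marrow and enter tissue, and cells newly derived from monocytes hold its transcript. Folr2, folate receptor beta, together with the hyaluronan receptor Lyve1 and the phosphatidylserine receptor Tim4 (gene *Timd4*), marks macrophages settled in a tissue. Monocyte-derived cells that stay in a tissue lose the first set of transcripts and gain the second, so a cell with both can stand between them. Retnla (RELMα) is a secreted protein of alternatively activated macrophages, and *H2-Eb1* encodes a chain of the MHC class II molecule that presents peptides to CD4+ T cells.

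In mm10 coordinates the genes behind the selection were *Ccr2* on chr9:124101950-124113557 (+), *Folr2* on chr7:101839988-101857194 (-), *Lyve1* on chr7:110850607-110863239 (-), *Timd4* on chr11:46810800-46844332 (+) and *Lyz1* on chr10:117287797-117292868 (-). *Retnla* lies on chr16:48842551-48844461 (+). *H2-Eb1* lies on chr17:34305867-34316674 (+), in the same cluster as *H2-Aa* on chr17:34282744-34287823 (-) and *H2-Ab1* on chr17:34257689-34269419 (+). All are protein-coding. Because 4 class II genes were among the 12 named as highest over other kept cells in both libraries, the 120 bases before the RefSeq start of *H2-Eb1* and of *H2-Aa* are shown (GRCm38.p6, each 5′ to 3′ on the strand of its gene, at chr17:34305747-34305866 and chr17:34287824-34287943). Capitals mark CTGATTGG, the letters of the Y box, an inverted CCAAT element known from class II promoters.
H2-Eb1: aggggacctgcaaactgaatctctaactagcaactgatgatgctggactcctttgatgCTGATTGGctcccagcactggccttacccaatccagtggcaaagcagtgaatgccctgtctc
H2-Aa: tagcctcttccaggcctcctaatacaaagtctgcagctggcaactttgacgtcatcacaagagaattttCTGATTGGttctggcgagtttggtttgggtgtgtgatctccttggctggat
The capitals begin 62 bases before the start of *H2-Eb1* and 51 before that of *H2-Aa*. This motif was chosen after the sequences had been read. On either strand it was found in 4 of the 10 class II pathway genes searched (*H2-Aa*, *H2-Eb1*, *H2-Eb2* and *H2-Oa*), and in 2.84% of the 32851 promoter stretches of the same length. *Cd74* and *H2-Ab1*, the other named class II genes, were not searched. A match describes letters and shows no binding.

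The CD library held 15003119 UMIs over 4459 barcodes and the HFD library 9164686 over 3163. The limits kept 53.0% of barcodes on CD and 63.9% after HFD, with a median of 4490.5 UMIs on CD and 2792 after HFD. The mitochondrial limit removed 2059 CD and 1132 HFD barcodes, more than the limits on genes did. The 2 libraries shared 14 barcode sequences, and 2 CD members and 0 HFD members were among them.

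Members made up 12.01% of kept cells on CD (exact Clopper-Pearson interval 10.7 to 13.4) and 7.67% after HFD (6.55 to 8.92). The difference was -4.34 percentage points (-6.12 to -2.55). Depth enters this share, because a deeper cell is more likely to show 1 UMI of each marker and also more likely to exceed the *Lyz1* or *Lyve1* limit. Members had a median of 5216.5 UMIs on CD and 3050 after HFD, against 4369.5 and 2757 in the other kept cells. With every cell thinned to 1000 UMIs, 145 of 2312 cells on CD were members (6.27%, 5.32 to 7.34), and after HFD 60 of 1754 were (3.42%, 2.62 to 4.38), a difference of -2.85 points (-4.18 to -1.50). Only *Ccr2*, *Folr2*, *Lyve1* and *Timd4* were read from the thinned cell. The *Lyz1* limit was read from the full cell, so its dependence on depth remained in the thinned share. A cell that lost its *Lyve1* or *Timd4* UMIs in thinning could count as a member. Thinning left out 52 CD cells and 267 HFD cells with fewer UMIs, of which 5 and 7 were members.

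By depth, the share on CD was 9.62% of cells with 500 to 1000 UMIs, 12.05% up to 2000, 8.67% up to 4000, 14.8% up to 8000 and 12.1% above. After HFD the same ranges gave 2.62%, 7.30%, 11.4%, 8.81% and 4.91%. The HFD share was the lower one in every range except 2000 to 4000 UMIs, where the intervals overlapped (6.74 to 10.9 on CD, 8.68 to 14.6 after HFD). They were apart in the ranges above 4000 UMIs and overlapped in the others.

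The members sat close to the detection limit of the markers that chose them. *Ccr2* had a median of 3 UMIs per member on CD (highest 21) and 2 after HFD (highest 13), and *Folr2* a median of 3 (highest 26) and 1 (highest 18). Exactly 1 *Ccr2* UMI was found in 58 CD members (20.4%) and 57 HFD members (36.8%), and exactly 1 *Folr2* UMI in 85 (29.9%) and 86 (55.5%). Summed over members and scaled to counts per 1000000 UMIs (CPM), *Ccr2* stood at 832 on CD and 817 after HFD, and *Folr2* at 827 and 603. The HFD members therefore had a nearly equal *Ccr2* level and a lower *Folr2* level, which is a description of the genes that chose them.

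Cells just on either side of the *Lyz1* limit were near the members as a whole in *H2-Eb1* and above them in *Retnla*. Members with 7 to 9 *Lyz1* UMIs (20 on CD, 10 after HFD) had *H2-Eb1* at 8562 and 10710 CPM, and cells with 10 to 12 that otherwise met the rule (13 and 9) had it at 8234 and 8522 CPM. *Retnla* was at 39343 and 48020 CPM inside this limit and at 52115 and 40178 CPM outside it. A further 107 CD cells and 46 HFD cells failed the rule by a single UMI of *Lyve1* or *Timd4*. Co-detection itself was wider than the rule, since 1024 kept CD cells (43.3%) and 390 kept HFD cells (19.3%) held both *Ccr2* and *Folr2*.

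Free RNA in the droplets can add a UMI of an abundant gene to any cell. Of the 22 CD cells holding at least 3 dendritic cell markers, 11 had a *Folr2* UMI, and of the 13 such HFD cells 2 did, at median depths of 7932.5 and 9918 UMIs. Endothelial-marked cells numbered 7 on CD and 3 after HFD, with a *Folr2* UMI in 2 and 1 of them and a *Ccr2* UMI in 3 and 0. Cells with at least 3 peritoneal macrophage markers numbered 5 and 11, with a *Folr2* UMI in 4 and 2 and a *Ccr2* UMI in 1 and 0. On CD a *Folr2* UMI was found in 1 of 2 T or NK-marked cells and in the 1 B-marked cell. Members were among these CD cells: 7 of the dendritic-marked, 1 of the endothelial-marked and the 1 B-marked. Members hold *Folr2* and *Ccr2* by the rule, so their counts here say nothing about free RNA. All of the marked cells held *Retnla* UMIs, so a *Retnla* UMI in a single cell carried no information here and levels are given instead. How many members owed their single *Folr2* or *Ccr2* UMI to free RNA was not tested.

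Transcripts of other cell types were few in the members as a whole. The T and NK cell list had 0 UMIs in both libraries, which allows up to 1.95 CPM per gene on CD and 5.08 after HFD, and *Gata6* of peritoneal macrophages was also at 0. The dendritic list summed to 136 and 110 CPM, led by *Napsa*, with *Xcr1* and *Ccr7* at 0. The B cell list summed to 241 and 229 CPM, led by *Ighm*, with *Ms4a1* at 0. Neutrophil genes summed to 93.5 and 129 CPM with *S100a8* and *Retnlg* at 0, stromal genes to 158 and 102 CPM with *Pdgfra* at 0, adipocyte genes to 51.3 and 28.8 CPM and endothelial genes to 17.5 and 11.9 CPM. Mast cell and eosinophil genes gave 0.649 and 0 CPM, peritoneal macrophage genes 16.9 and 10.2 CPM, and cell cycle genes 292 and 88.0 CPM, led by *Stmn1*. Haemoglobin was the exception on CD, where its genes and *Alas2* together summed to 1394 CPM against 18.6 after HFD, and 1 CD member held 2056 of the 2143 haemoglobin UMIs. The mesothelial list gave 5.84 CPM on CD, from 9 UMIs of 1 member, and 0 after HFD.

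The macrophage part of the name fitted some members less well than the rest. Among 284 CD members, 44 (15.5%) gave less than 1% of their UMIs to the resident macrophage list, and 13 of 155 HFD members (8.39%) did; the 1% limit was set after the values were seen. Genes of that list are low in these cells by choice. Outside the list, *Adgre1*, which encodes the F4/80 used in the sort, was at 93.3 CPM on CD against 354 in the remaining members, and at 67.7 against 364 after HFD. The dendritic list went the other way, at 503 against 27.0 CPM on CD and 508 against 39.8 after HFD, and so did *Cd24a* (464 against 28.6, and 192 against 15.9) and *Napsa* (277 against 19.4, and 418 against 27.9), a gene of that list. The list of recruited genes, which holds *Cd24a*, was higher as well, at 46431 against 31393 CPM on CD and 48601 against 33262 after HFD. The class II list was at 64130 against 63446 CPM on CD and 82402 against 69136 after HFD. The members low in the resident list were not shallow, with median depths of 7408 and 6870 UMIs. Exactly 1 *Folr2* UMI was found in 30 of the 44 and 12 of the 13. The group is named by its rule below for this reason, and whether each such cell was a macrophage was not tested.

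To place the members among their neighbours, the other kept cells were split by the same 5 genes. The classes were cells with *Folr2* alone (255 on CD, 265 after HFD), *Ccr2* alone (103, 257), neither (47, 277), *Lyz1*-high with *Folr2* (262, 134), *Lyz1*-high without *Folr2* (159, 474), and cells with *Lyve1* or *Timd4* (1254, 459). The mixture of other kept cells differed greatly between libraries: the *Lyve1* or *Timd4* class was the largest of the 6 on CD, and the *Lyz1*-high class without *Folr2* was the largest after HFD. A ratio of members over other kept cells moves with that mixture, so class levels are given beside it.

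**Figure D1:**
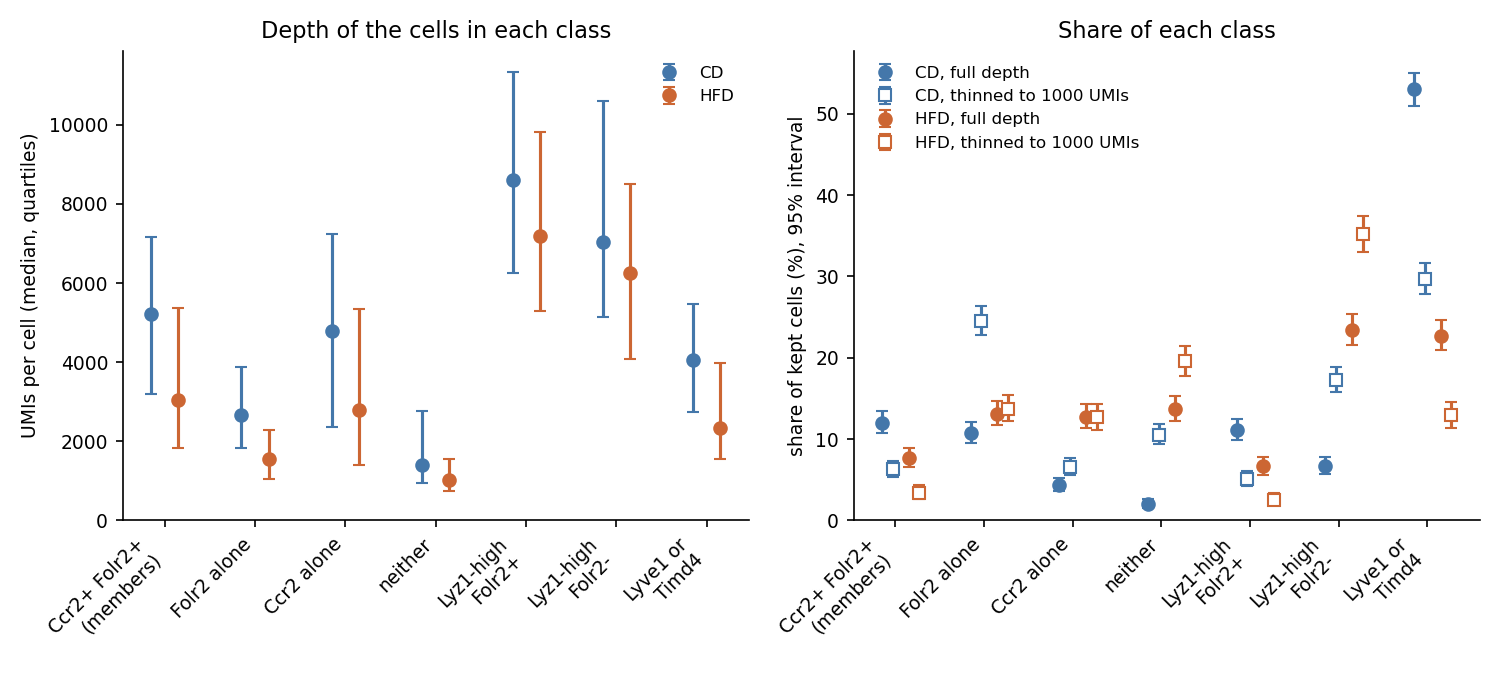
Left, UMIs per cell (median with quartiles) in each of the 7 classes of kept cells, CD and HFD. Right, each class as a percent of kept cells (exact 95% interval) at full depth and with cells thinned to 1000 UMIs (*Lyz1* limit read at full depth). Members went from 12.01% to 6.27% on CD and from 7.67% to 3.42% after HFD with thinning, and stayed lower after HFD than on CD at both depths.

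Most MHC class II transcripts were higher in members than in the other kept cells of both libraries. *H2-Eb1* was at 8931 CPM in CD members and 9507 in HFD members, against 6147 and 7095 in the other kept cells, a log2 ratio of 0.54 (0.51 to 0.57) on CD and 0.42 (0.38 to 0.46) after HFD. On CD the 6 other classes lay between 5323 (*Lyve1* or *Timd4*) and 8228 CPM (*Ccr2* alone), and after HFD between 5529 (neither) and 9005 (*Ccr2* alone), so members were the highest class in both libraries. Their lead over the *Ccr2* class was small, at log2 0.12 on CD and 0.08 after HFD, and over the *Folr2* class it was 0.44 and 0.68. *H2-Aa*, the partner alpha chain of I-A, was at 11019 and 11411 CPM in members and 7570 and 8167 in other kept cells. *Cd74*, the invariant chain that guides class II to the endosome, was at 28961 and 33817 CPM against 20043 and 26026. *H2-Ab1*, the I-A beta chain, was at 11436 and 13153 CPM in members, against 11695 and 12876 in cells with *Ccr2* alone. For both *H2-Ab1* and *Cd74* the members and the *Ccr2* class were close in each library.

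Summed over the class II list, members stood at 63603 CPM on CD and 71125 after HFD, cells with *Ccr2* alone at 64549 and 71291, and cells with *Folr2* alone at 44251 and 40435. Of the 9 class II genes with enough UMIs, 8 on CD and 7 after HFD were above 0 in members over other kept cells. None was past 2-fold, where few of all genes were (0.33% higher and 1.4% lower on CD, 0.937% and 3.51% after HFD). Their median log2 ratio was 0.43 on CD and 0.38 after HFD, beside -0.03 and -0.00 over all genes compared. *H2-DMb2*, a subunit of the peptide exchanger H2-DM, was on the other side in both libraries, with log2 ratios of -0.09 and -0.46. *Ciita*, the master regulator of class II transcription, was at 79.9 and 96.5 CPM in members, with ratios of 0.30 and 0.49.

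*Retnla* did not mark the members above the rest of the cells. It stood at 25392 CPM in CD members and 25180 in HFD members, and at 36342 and 41762 in the other kept cells, a log2 ratio of -0.52 (-0.53 to -0.50) and -0.73 (-0.75 to -0.71). By class, the *Lyz1*-high cells were far above the members, at 52611 with and 52270 without *Folr2* on CD and 56682 and 56235 after HFD. Cells with *Lyve1* or *Timd4* were also higher (31202 and 31865), and those with *Folr2* alone (15490 and 12279), *Ccr2* alone (19662 and 23384) or neither marker (11373 and 14252) were lower. The members therefore held a middle level of *Retnla*, with HFD members 0.01 log2 units from CD members (-0.01, -0.04 to 0.02). The *Lyz1* limit removes cells that are highest in *Retnla*. On CD the ratio over other kept cells was weakest, at -0.18, with *Lyz1* limited as a share of UMIs. That limit changed the HFD ratio little. After HFD the ratio was strongest, at -1.53, with members chosen after thinning.

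**Figure D2:**
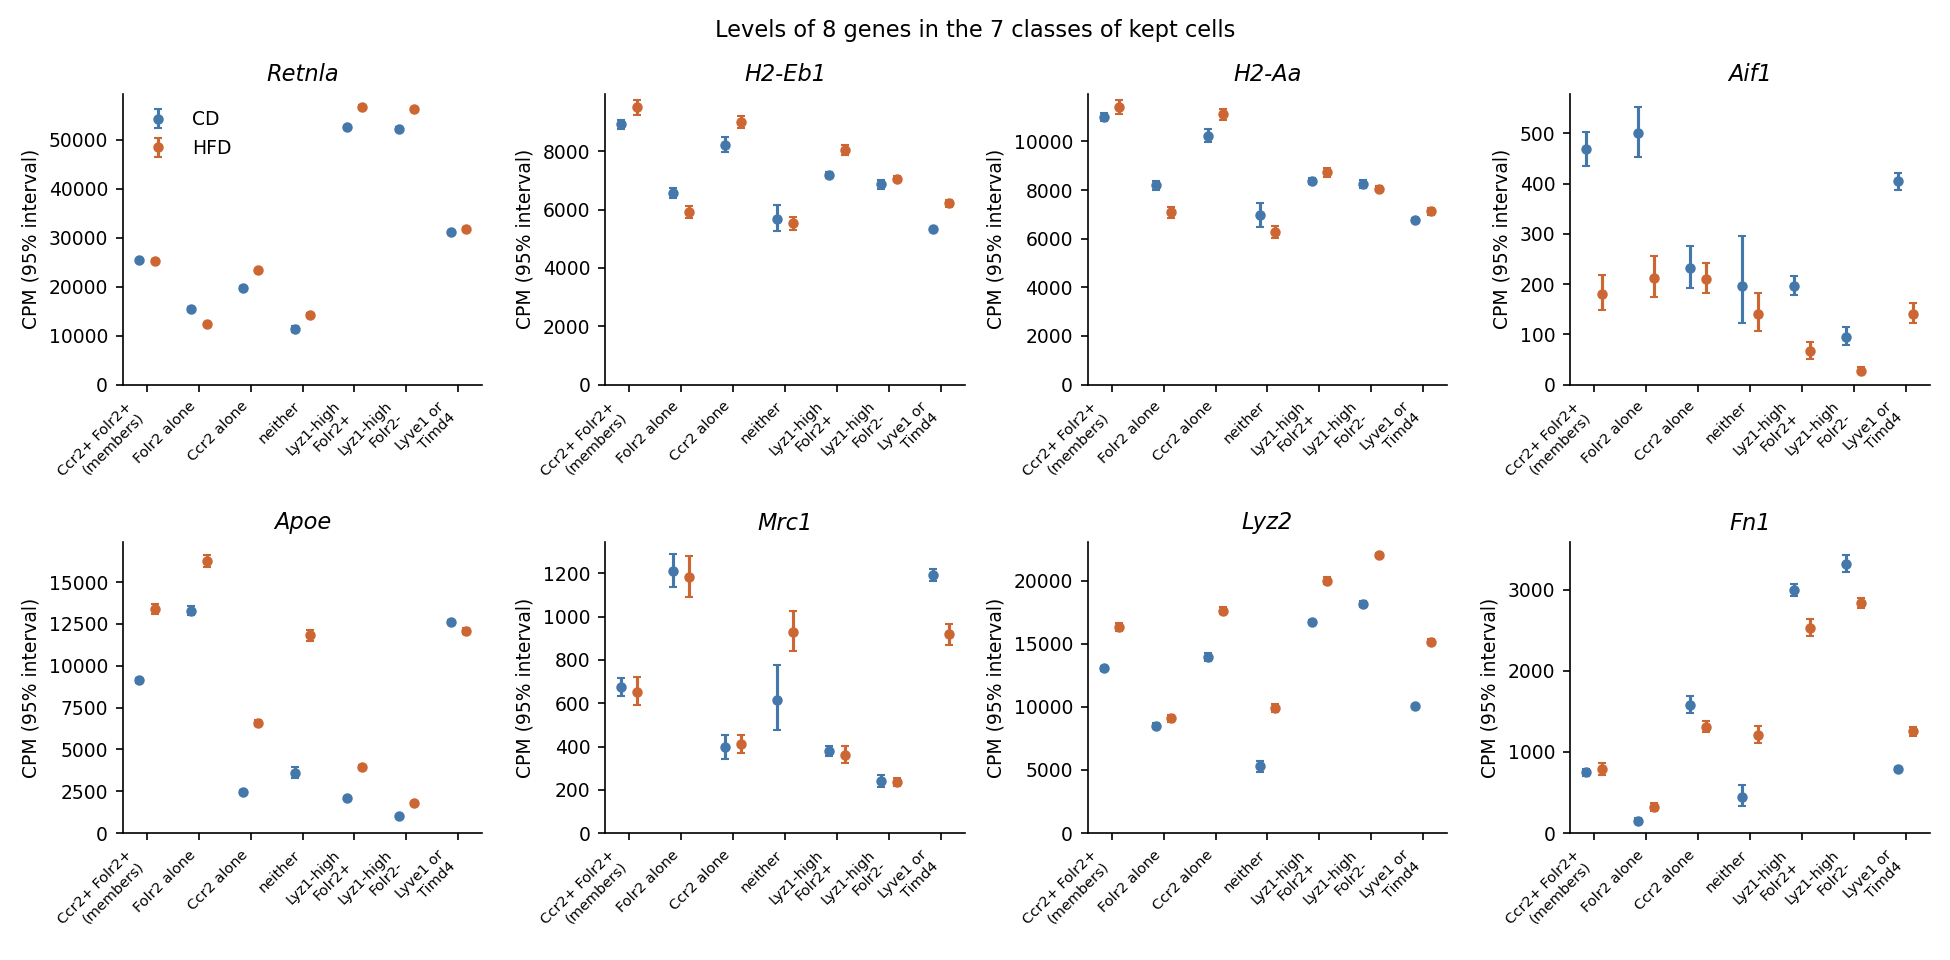
Levels (CPM, exact Poisson 95% intervals covering counting error) of 8 genes in the 7 classes of kept cells, CD and HFD. Members are the highest class for *H2-Eb1* and *H2-Aa*, where the HFD interval of *H2-Aa* overlaps that of cells with *Ccr2* alone, and lie between the *Folr2* and *Ccr2* classes for *Apoe*, *Mrc1*, *Lyz2* and *Fn1* on CD.

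The resident list, 31 genes of settled tissue macrophages, placed the members between the classes. It summed to 38615 CPM in CD members and 41010 in HFD members, against 58624 and 53176 in cells with *Folr2* alone, 58361 and 43584 in cells with *Lyve1* or *Timd4*, and 12602 and 19490 in cells with *Ccr2* alone. *Lyz1*-high cells without *Folr2* were lowest, at 9588 and 9195. *Apoe*, which carries lipids out of the cell, was at 9129 CPM in CD members and 13400 in HFD members, below the 13300 and 16266 of the *Folr2* class and above the 2438 and 6568 of the *Ccr2* class. *C1qa* had the same order on CD (4141 in members, 5157 in the *Folr2* class, 1264 in the *Ccr2* class) and after HFD (3598, 4053 and 1628). *C1qb* was at 4667 and 4820 CPM in members, not below the 4589 and 4193 of cells with *Folr2* alone. *Mrc1*, the mannose receptor CD206, was at 676 and 653 CPM in members, 1212 and 1184 with *Folr2* alone, and 396 and 410 with *Ccr2* alone.

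The recruited list, 28 genes of monocytes and their recent progeny, ran in the opposite order. It summed to 34845 and 35562 CPM in members, 20560 and 21164 in cells with *Folr2* alone, 45014 and 42452 in cells with *Ccr2* alone, and 56495 and 55258 in *Lyz1*-high cells without *Folr2*. *Lyz2*, the myeloid lysozyme whose sequence is close to that of *Lyz1*, was at 13053 and 16328 CPM in members, 8506 and 9083 with *Folr2* alone and 13957 and 17641 with *Ccr2* alone; reads of the 2 lysozyme genes may have been split between them. *Fn1*, fibronectin, was at 750 and 789 CPM in members, 154 and 316 with *Folr2* alone and 1581 and 1311 with *Ccr2* alone. Since *Folr2* and *Ccr2* chose both members and classes, these orders describe the selection and were not tested.

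Against all other kept cells, few genes were 2-fold or more apart. On CD, of 7570 genes with at least 100 UMIs, 25 were at least 2-fold higher in members (0.33%) and 106 at least 2-fold lower (1.4%). After HFD, of 6404 genes, 60 were higher (0.937%) and 225 lower (3.51%). These counts moved widely over the alternatives run, which include other UMI minima. They were 11 to 913 higher and 71 to 580 lower on CD, and 21 to 1155 and 178 to 796 after HFD. Among the 6375 genes with enough UMIs in both libraries, 0 were past 2-fold higher in both and 14 past 2-fold lower in both. At any size, 105 genes had intervals above 0 in both libraries and 103 had intervals below 0. Members were chosen on counts of the same cells, so no test stands behind these counts.

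Beside 4 class II genes, 8 others were named as highest over the other kept cells in both libraries. *Ms4a6c*, a tetraspan membrane protein of monocytes and macrophages, was at 269 CPM in CD members and 337 in HFD members, against 167 and 172, log2 0.69 (0.54 to 0.85) and 0.97 (0.74 to 1.18). *Aif1* (Iba1), an actin-binding macrophage protein, was at 468 and 181 CPM against 320 and 98.5. *Lst1*, a leukocyte gene within the MHC region, was at 261 and 227 CPM against 178 and 133, and *Cd83*, which stabilises class II at the cell surface, at 610 and 706 CPM against 438 and 463. *Fcgr1*, the high affinity IgG receptor, was at 64.9 and 62.6 CPM against 40.1 and 30.3, though with members chosen after thinning the HFD log2 ratio was -0.046, and *Axl*, a receptor for apoptotic cells, at 85.7 and 105 CPM against 46.2 and 63.8. *Ccl3*, a chemokine for monocytes and lymphocytes, was at 112 and 206 CPM against 77.1 and 116. For *Aif1*, the *Folr2* class was at 501 and 213 CPM, with intervals that overlapped those of the members, and for *Axl* the *Ccr2* class was level or higher (85.9 and 123 CPM).

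*Plac8*, a monocyte gene, had log2 ratios of 1.48 on CD, the largest of these genes there, and 0.92 after HFD, but these rested on few cells. Only 8 members of each library held a *Plac8* UMI, and 1 member held 39 of the 90 UMIs on CD and 81 of the 94 after HFD. Without that cell the HFD ratio was -1.93, and with members chosen after thinning the CD ratio was -0.47.

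**Figure D3:**
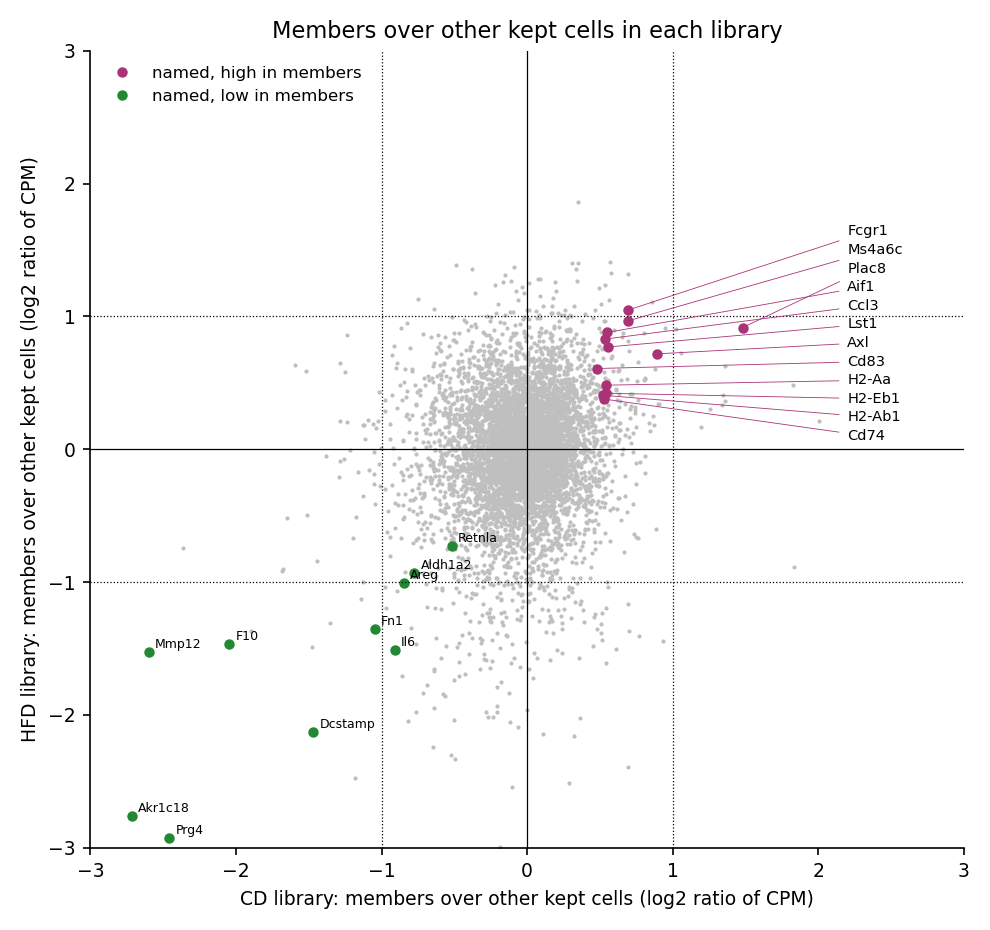
Log2 ratio of CPM in members over other kept cells, CD on the x axis and HFD on the y axis, for the 6375 genes with at least 100 UMIs in each library; 6366 are drawn and 9 lie outside the axes. Purple points are the 12 genes named as highest and green points those named as lowest in both libraries, and the dotted lines mark 2-fold. *H2-Aa*, *H2-Eb1*, *H2-Ab1* and *Cd74* lie together near 0.5 on both axes, and no gene lies past 2-fold higher on both.

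*Retnla* and the genes that follow were the 12 named as lowest in members in both libraries. *Saa3*, an acute phase protein, had 2 UMIs in CD members and 6 in HFD members, 1.30 and 10.2 CPM against 21.2 and 127 in other kept cells, where the HFD cells with neither marker were highest (901 CPM). *Akr1c18*, a steroid-metabolising reductase, was at 5.84 and 10.2 CPM against 38.3 and 68.8. *Prg4*, lubricin, was at 1.95 and 3.39 CPM against 10.7 and 25.7. It belongs to the peritoneal macrophage list, whose summed log2 ratio of members over other kept cells was -0.99 (-1.62 to -0.41) on CD and -3.09 (-4.54 to -1.96) after HFD; its part in the low genes was not tested. *Mmp12*, macrophage elastase, was at 7.14 and 32.2 against 43.3 and 92.7, and *F10*, coagulation factor X, at 3.90 and 15.2 against 16.1 and 42.2. *Dcstamp*, needed for macrophage fusion, was at 10.4 and 8.46 CPM against 28.8 and 37.1. *Fn1* was lower in members by log2 1.05 on CD (-1.05, -1.13 to -0.96) and 1.35 after HFD (-1.35, -1.49 to -1.22). The cytokine *Il6* (57.8 and 66.0 CPM against 109 and 188), the growth factor *Areg* (58.4 and 52.5 against 105 and 106) and *Aldh1a2*, which makes retinoic acid (65.6 and 60.9 against 112 and 116), were lower in both libraries. *Hbb-bt*, a haemoglobin chain of red cells, was also named by the rule, at 12.98 and 1.69 CPM against 72.3 and 61.8, and after HFD the log2 ratio was 0.45 without cells holding haemoglobin or markers of another type.

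Resident genes compared differently with the rest of the library on the 2 diets. On CD their median log2 ratio of members over other kept cells was -0.35, with 26 of 31 below 0, 0 of 31 past 2-fold higher (0.33% of all genes) and 6 lower (1.4% of all genes;*Fcna*, *Ccl8*, *Cd209d*, *Cd209b*, *C4b* and *Ednrb*). After HFD the median was 0.46, with 24 above 0, 2 higher (*Mgl2*, a galactose-type lectin, and *Apoe*; 0.937% of all genes) and 1 lower (*Ccl8*; 3.51% of all genes). *Apoe* went from log2 0.11 (0.09 to 0.14) to 1.08 (1.04 to 1.11), *Pf4* from -0.02 (-0.06 to 0.02) to 0.99 (0.93 to 1.06) and *Mgl2* from 0.34 (0.25 to 0.43) to 1.26 (1.10 to 1.43). The members' own list level was close in both libraries, 38615 and 41010 CPM, while that of the other kept cells was 40905 on CD and 23279 after HFD. Recruited genes had median ratios of 0.01 and -0.36. Beside the same shares of all genes, on CD 4 of 26 were past 2-fold higher (*Plac8*, *Cx3cr1*, *Ly6c2*, *Ms4a4c*) and 2 lower (*Fn1*, *F10*), and after HFD 0 of 25 were higher and 5 lower (*Ear2*, *Fn1*, *F10*, *Cd24a* and *Adam8*). How far the different mixture of other cells set these ratios was not tested.

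The other lists had the following median log2 ratios of members over other kept cells. The complement and Fc receptor list had a median of 0.14 on CD, with 0 of 14 higher and 2 lower (all genes 0.33% and 1.4%), and of 0.54 after HFD, with 2 higher, *Fcgr4* among them, and 0 lower (all genes 0.937% and 3.51%). *Fcgr4*, an Fc receptor for IgG, was at 17.5 and 66.0 CPM in members. Chemoattractant receptors had medians of -0.01 and 0.55, and *C5ar1*, the receptor for the complement fragment C5a, was at 421 and 807 CPM. Chemokine ligands had medians of 0.14 and 0.43, led by *Ccl12* after HFD (144 CPM against 39.6), where 1 member held 40 of its 85 UMIs. Endocytosis genes had medians of -0.18 and 0.32, lysosome genes of -0.04 and 0.23, lipid handling genes of -0.05 and 0.11, alternative activation genes of -0.32 and 0.03, and interferon genes of -0.12 and 0.31. Immediate early genes had medians of 0.11 and 0.21, heat shock genes of -0.04 and -0.04, and genes of lipid-associated macrophages of 0.12 and 0.05.

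Within the members, HFD cells were higher than CD cells in *Plin2*, *Cd14* and *Hspa1a*, among others, and lower in *Ccl8*, *Cd209f*, *Cbr2* and *Aif1*. Of the 2539 genes with at least 100 UMIs in the members of both libraries together, 20 were at least 2-fold higher after HFD (0.788%) and 28 at least 2-fold lower (1.1%). Over the alternatives run, which include other UMI minima, the counts were 16 to 1027 higher and 21 to 782 lower. In the other kept cells, 18 of the 2539 genes were past 2-fold higher and 48 past 2-fold lower. Of the 20 higher genes, 7 were past 2-fold and 17 of the same sign in the other kept cells, and of the 28 lower genes 10 and 21 were. The median over all 2539 genes was -0.04 in members and -0.03 in other kept cells. A ratio of HFD over CD in the other kept cells pooled moves with their mixture of classes, which differed between libraries.

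*Plin2*, the coat protein of lipid droplets, was higher by the widest margin over its counting error. It was at 410 CPM in CD members and 1417 in HFD members, log2 1.79 (1.64 to 1.94), and 76.8% of CD members and 87.7% of HFD members held a UMI. The difference was shared by the other classes: the log2 ratio was above 0 in 7 of 7 classes, between 1.45 and 2.22. *Cd36*, the scavenger receptor that takes up fatty acids, was at 628 CPM in CD members and 1161 in HFD members, log2 0.89 (0.74 to 1.03), against 0.27 in other kept cells. *Apoe* was 0.55 higher in members (0.51 to 0.59) and 0.41 lower in the other kept cells pooled (-0.41). By the class levels given above, *Apoe* was also higher after HFD in cells with *Folr2* alone and in cells with *Ccr2* alone. *Fabp4*, a cytosolic fatty acid carrier of adipocytes and macrophages, was lower (280 and 122 CPM, log2 -1.20), but 1 CD member held 249 of its 431 UMIs, and without the top members the ratio was -0.12. Over the lipid handling list the median was 0.22, with 1 of 10 genes past 2-fold higher (*Plin2*) and 1 lower (*Fabp4*), where 0.788% and 1.1% of all genes were, beside a median of 0.03 in other kept cells.

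Further named genes were higher after HFD. Past 2-fold higher were 1 of 12 endocytosis genes, 0 of 20 lysosome genes and 0 of 13 chemokine ligands, against 0.788% of all genes, and 1 chemokine ligand (*Ccl8*) was past 2-fold lower, against 1.1%. *Cd14*, the co-receptor for lipopolysaccharide, was at 519 CPM in CD members and 1142 in HFD members, log2 1.14 (0.99 to 1.29). *Pla2g7*, a phospholipase that cleaves oxidised phospholipids, was at 141 and 357 CPM, log2 1.34, and *Ctsd*, the lysosomal protease cathepsin D, at 543 and 1061 CPM, log2 0.97. *Ccl9*, a macrophage chemokine, was at 1704 and 3162 CPM, log2 0.89. *Msr1*, the scavenger receptor for modified lipoproteins, was at 37.7 and 96.5 CPM, and *Man2a1*, a Golgi mannosidase, at 33.8 and 88.0 CPM. *Trim25*, a ubiquitin ligase of antiviral sensing, was at 75.3 and 176 CPM. *Rgs1*, which dampens chemokine receptor signals, was at 151 and 322 CPM, log2 1.09 against 1.74 in the other kept cells. The other classes shared these differences: *Cd14*, *Pla2g7*, *Ctsd*, *Ccl9*, *Msr1*, *Man2a1*, *Trim25* and *Rgs1* were each higher after HFD in 7 of 7 classes. *Plac8* was also past the limit (58.4 and 159 CPM), but without the member holding most of its UMIs in each library the log2 ratio was -0.59.

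The inducible chaperone gene *Hspa1a* was at 351 CPM in CD members and 799 in HFD members, log2 1.19 (1.004 to 1.37), against 0.67 in other kept cells pooled. By class, its log2 ratio was above 0 in 7 of 7 classes, between 1.03 and 1.20, so the difference was shared by the other classes. *Hspa1b* was at 42.8 and 120 CPM, log2 1.49; the 2 genes are near-identical copies, so reads could have been split between them. Of 9 heat shock genes these 2 were past 2-fold higher, against 0.788% of all genes, and the list's median was 0.30, beside 0.26 in other kept cells. Immediate early genes were shifted together by little: 16 of 17 were above 0 with a median of 0.16 and none was past 2-fold, beside 9 of 17 with a median of 0.05 in other kept cells. *Jun* was at 1296 and 1740 CPM in members, log2 0.42 (0.31 to 0.53), and -0.20 in other kept cells. These genes also respond to tissue digestion, and the part of cell handling in the values was not tested.

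Lower after HFD were several genes of the resident list. *Ccl8*, a monocyte-attracting chemokine, was at 138 CPM in CD members and 13.5 in HFD members, log2 -3.35 (-4.58 to -2.34), and 1 CD member held 70 of its 212 UMIs. The C-type lectins *Cd209f* (602 and 134 CPM, log2 -2.17), *Cd209g* (235 and 64.3, -1.87) and *Cd209d* (168 and 50.8, -1.73) were lower, as was *Cbr2*, a carbonyl reductase (276 and 98.2, -1.49). *Aif1* was at 468 and 181 CPM, log2 -1.37 (-1.68 to -1.08). In the other kept cells pooled the same genes were lower too, by -3.47 for *Ccl8*, -2.48 for *Cd209f*, -2.88 for *Cbr2* and -1.70 for *Aif1*. By class, members included, the log2 ratio ran from -2.17 to -0.08 for *Cd209f*, where the members were lowest. It ran from -2.19 to -0.96 for *Cbr2*, from -3.73 to -1.87 for *Ccl8* and from -1.77 to -0.14 for *Aif1*. Over the resident list 5 of 30 genes were past 2-fold lower in members and 0 higher, against 1.1% and 0.788% of all genes, with a median of -0.15, while in other kept cells 15 of 30 were lower with a median of -0.998. The difference between these medians was not tested, and the pooled one moves with the mixture of classes. By the class sums given above, the resident list was higher after HFD in cells with *Ccr2* alone. It was lower in cells with *Folr2* alone, in cells with *Lyve1* or *Timd4* and in *Lyz1*-high cells without *Folr2*.

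**Figure D4:**
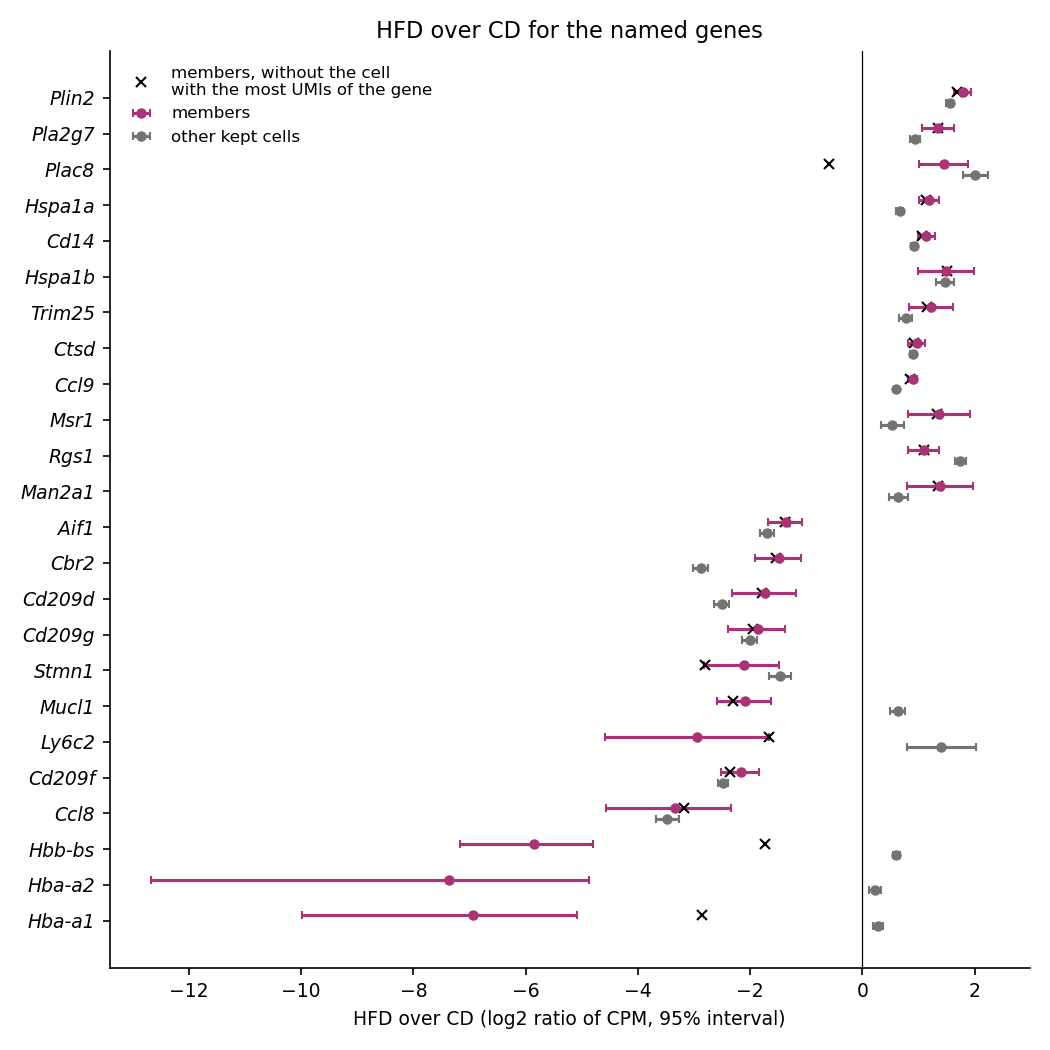
Log2 ratio of HFD over CD (CPM, exact 95% intervals) for the named genes, in members and in the other kept cells, with a cross for the members' value when the member holding most UMIs of the gene in each library is left out (*Hba-a2* has none, since no HFD UMI is then left). *Plin2*, *Cd14* and *Ctsd* lie above 0 and *Ccl8*, *Cd209f* and *Aif1* below 0 in both populations, while the haemoglobin genes lie below 0 in members and above 0 in the other kept cells pooled, though in no single class with enough UMIs.

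The low ratios of the haemoglobin genes rested largely on 1 CD cell, and that of *Ly6c2* on another. *Hba-a1* (417 and 3.39 CPM), *Hba-a2* (278 and 1.69) and *Hbb-bs* (684 and 11.8) had log2 ratios of -6.94, -7.36 and -5.85, and 1 CD member held 623 of the 642 *Hba-a1* UMIs; without the top member of each library the ratio was -2.85 for *Hba-a1* and -1.74 for *Hbb-bs*. By class, *Hbb-bs* was lower after HFD in 7 of 7 classes with enough UMIs, *Hba-a1* in 6 of 6 and *Hba-a2* in 4 of 4, although the other kept cells pooled were higher. Chosen after thinning, members were on the other side of 0 for *Hba-a1* (0.55). *Ly6c2*, the gene of the monocyte antigen Ly6C, was at 64.9 and 8.46 CPM, and 1 CD member held 75 of its 100 UMIs; the log2 ratio was -2.94, -1.67 without the top members and 4.72 with members chosen after thinning. *Mucl1*, a small secreted mucin-like protein, was at 289 and 67.7 CPM, with 149 and 116 of its 445 CD UMIs in the top 2 of 284 members; the log2 ratio was -2.09, and 0.58 with members chosen after thinning. It was higher after HFD in 4 of 5 classes. *Stmn1*, a microtubule regulator of dividing cells, was at 162 and 37.2 CPM and was found in 31 CD members and 9 HFD members, and it was lower after HFD in 7 of 7 classes.

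For the other macrophage lists, the median log2 ratios of HFD over CD in members are set beside those in other kept cells. The recruited list had a median of -0.01 over 21 genes in members and 0.38 in other kept cells pooled. By the class sums given above, the recruited list was lower after HFD in cells with *Ccr2* alone and in *Lyz1*-high cells without *Folr2*. It was a little higher in cells with *Folr2* alone. The class II list had medians of 0.09 and 0.11 over 9 genes. Lysosome genes had medians of 0.10 and -0.18, endocytosis genes of 0.07 and -0.47, complement and Fc receptor genes of -0.00 and -0.35, chemokine ligands of 0.17 and -0.10, chemoattractant receptors of 0.40 and 0.40, and genes of lipid-associated macrophages of 0.12 and 0.40. No test of these differences was possible with 1 library per diet.

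The members were not uniform. On CD 114 held more *Folr2* than *Ccr2* UMIs, 136 held more *Ccr2* and 34 equal numbers, and after HFD 44, 71 and 40 did. Members with more *Folr2* had the resident list at 60917 CPM on CD and 58149 after HFD, against 25805 and 33757 in those with more *Ccr2*. The recruited list was at 27745 and 32632 CPM against 39925 and 38889. The class II list was higher with more *Ccr2*, at 63528 against 66889 CPM on CD and 60234 against 84512 after HFD, but single genes differed: *H2-Eb1* had a log2 ratio of more *Folr2* over more *Ccr2* of 0.07 (0.02 to 0.12) on CD and -0.39 after HFD, and *H2-Aa* of 0.005 (-0.04 to 0.05) and -0.39. *Retnla* was also on opposite sides, at 0.13 on CD and -0.63 after HFD. The dendritic list was at 14.4 and 24.0 CPM in members with more *Folr2* and 232 and 143 CPM in those with more *Ccr2*.

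Gene by gene, members with more *Folr2* were higher in the lectin *Cd209f* (log2 2.04 on CD, 2.75 after HFD), the haemoglobin scavenger receptor *Cd163* (1.94 and 1.94), the ficolin *Fcna* (2.03 and 1.91), the chemokine *Ccl7* (1.48 and 3.46, the latter 2.64 without 1 member that held 173 of 379 UMIs), *Gas6*, a ligand of Axl (1.83 and 1.27), *Selenop*, which carries selenium (1.35 and 1.27), and *Pf4* (1.34 and 1.28). Those with more *Ccr2* were higher in *Napsa* (-4.66 and -3.27), the leukocyte antigen *Cd52* (-1.89 and -1.03), the eosinophil-type ribonuclease *Ear2* (-1.82 and -1.50), the cytokine *Il1b* (-1.41 and -1.63) and *Lsp1*, a leukocyte actin-binding protein (-1.42 and -1.48). *Cd24a* had 7 UMIs in the former and 164 in the latter on CD, log2 -3.95. After HFD the interferon-induced genes *Ifit1* and *Rsad2* stood far higher with more *Folr2* (5.50 and 4.15), but 1 member held 22 of 25 and 27 of 30 of their UMIs.

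Cell by cell, the resident list took a median of 4.40% of a CD member's UMIs (quartiles 2.40 and 6.18) and 4.49% of an HFD member's (3.11 and 5.99). The medians were 5.86% and 5.09% in cells with *Folr2* alone, 6.46% and 5.47% in cells with *Lyve1* or *Timd4*, 1.17% and 1.72% in cells with *Ccr2* alone, and 0.755% and 0.593% in *Lyz1*-high cells without *Folr2*. A resident share between the medians of the *Lyve1* or *Timd4* class and the *Lyz1*-high class without *Folr2* was found in 188 CD members (66.2%) and 90 HFD members (58.1%). For the recruited list 172 (60.6%) and 101 (65.2%) lay between the same classes. Such middle shares were not particular to members. Cells with neither marker had resident quartiles of 1.03% and 3.74% on CD and 2.32% and 5.07% after HFD, between the same medians. Cells with *Ccr2* alone had recruited quartiles of 2.89% and 5.30% on CD and 2.33% and 4.73% after HFD, also between them. The resident share of CD members ran from 0.271% to 13.3%, so the members covered both ends of the resident scale as well as its middle.

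**Figure D5:**
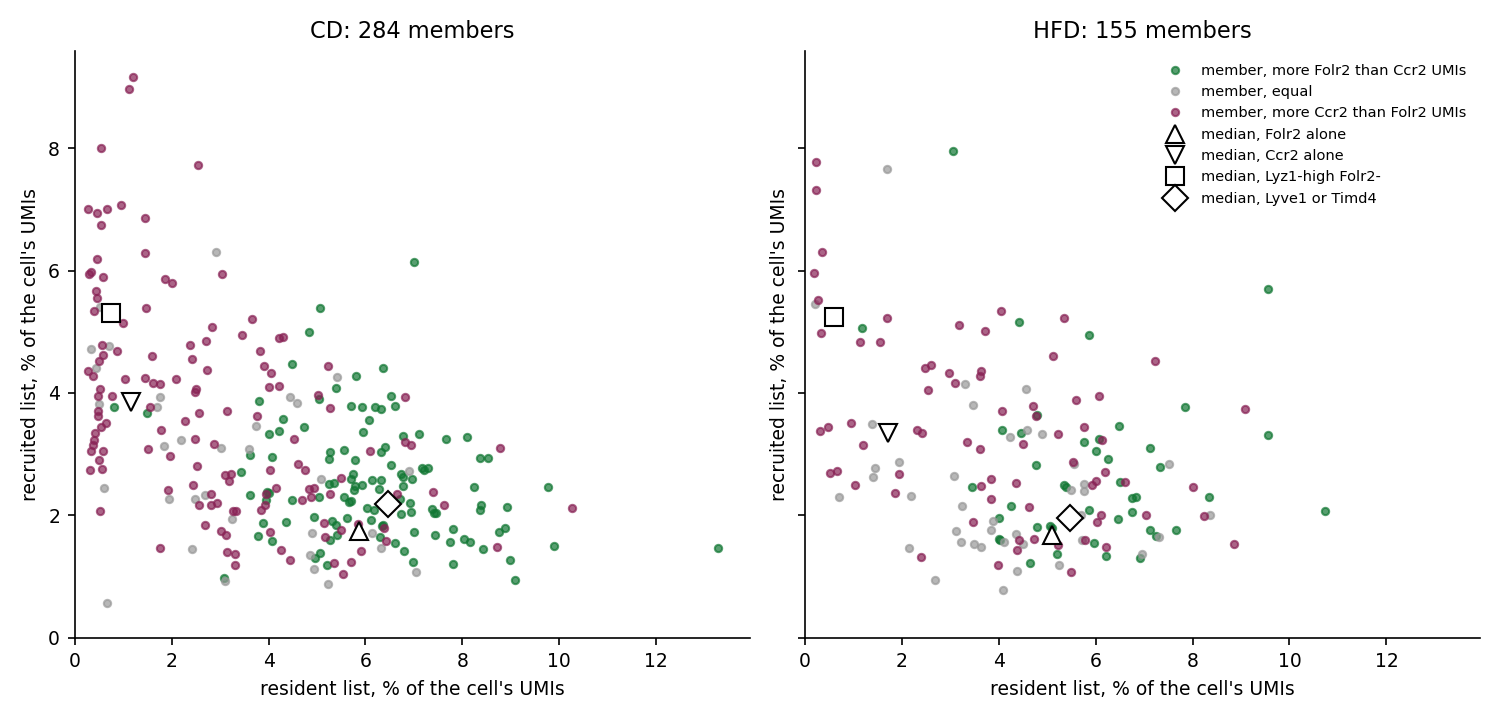
Each point is 1 member, 284 on CD and 155 after HFD. The axes give the percent of its UMIs in the resident list and in the recruited list. Colours show whether the cell held more *Folr2* (green), more *Ccr2* (purple) or equal UMIs (grey), and open symbols are the medians of 4 other classes. Members spread from 0.271% to 13.3% of UMIs in the resident list on CD, and the members with the lowest resident shares are mostly those with more *Ccr2* than *Folr2* UMIs.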

How the data were processed

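Cells of 2 libraries were measured with the 10x Genomics Single Cell 3' kit; the authors deposited filtered matrices of raw UMI counts, made with Cell Ranger 3.0.2 on mm10 (per the submitters' processing notes; Ensembl 93 annotation). Members and gene lists were chosen with earlier results of these data known. Counts were summed over members, other kept cells and classes, and scaled to CPM (Python 3.11.15, numpy 2.4.6, scipy 1.17.1, pandas 2.3.3). Intervals were exact: Clopper-Pearson for shares, Poisson for CPM, conditional binomial for ratios. PCR duplicates had been collapsed by UMI; intervals cover counting error only, and with 1 library per diet no test was run.

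Genes needed at least 100 UMIs. Named genes were the 12 highest and 12 lowest by the bound nearest 0, in both libraries or for HFD over CD, the genes of the 26 lists, and the top gene of each list; the genes of the rule, mitochondrial genes, ribosomal protein genes and unnamed models were left out. Genes named otherwise were chosen after their values were seen. Doublets were not removed: Scrublet (scanpy 1.11.5) called 0 and 2, too few to be of use, so its top-scoring barcodes (159 and 80) were removed as an alternative. The limits of the study (200 genes to 1.5 interquartile ranges above the upper quartile, 10% mitochondrial UMIs, at most 7 UMIs per gene), applied here, left 2364 and 1993 cells, the latter 1 fewer than the study states, and were an alternative. Positions came from GENCODE M21. On simulated data the intervals held the true ratio for 95.7% of 7570 genes (members over other, CD), 96.4% of 6404 (HFD) and 95.7% of 2539 (HFD over CD). The simulated counts were Poisson draws on the summed totals, which is the model the intervals assume, so this checked the calculation only. The gathering of a gene's UMIs in single cells was left out, and coverage for the real counts was not tested.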

Additional observations from a re-analysis of the deposited data

Results flagged for a closer look

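There were 7 lists with summed levels in members over other kept cells on opposite sides of 0 in the 2 libraries and with counting intervals that did not reach 0 in either; each diet had 1 library, so these differences were not tested. The log2 ratio of summed CPM was -0.083 on CD and 0.82 after HFD for the resident list, -0.23 and 0.32 for endocytosis and scavenger receptor genes, -0.10 and 0.35 for chemokine ligands, and -0.041 and 0.19 for lysosome genes. For chemokine ligands only the sum changed sides, since the median log2 ratio over genes was above 0 in both libraries (0.14 and 0.43). For the dendritic list it was 0.57 and -0.59, for the stromal list -0.53 and 0.44, and for the erythroid list 0.84 and -5.76. The erythroid value on CD rested on 1 member that held 2056 of 2143 haemoglobin UMIs. Without the top member of each gene, CD members were at 12.4 CPM for *Hba-a1*, 6.52 for *Hba-a2* and 33.9 for *Hbb-bs*. The other kept CD cells, with none left out, were at 207, 165 and 334 CPM. Kept cells with 10 or more haemoglobin UMIs numbered 2 on CD, of which 1 was a member, and 2 after HFD, of which 0 were. The other kept cells thus retained such a cell while the members did not, and no direction is read from this comparison. Of the cells with at least 3 dendritic markers, 7 of 22 on CD and 0 of 13 after HFD were members, beside the dendritic ratios. For the resident list the members were at 38615 and 41010 CPM and the other kept cells at 40905 and 23279 CPM.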

How the results depend on the processing

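With 1 library per diet no replicate could be left out. No paired analysis was possible because each diet has 1 library, so no differences within pairs can be compared. *Retnla* stayed lower in members (log2 -0.62 to -0.18 on CD, -1.53 to -0.48 after HFD) and *H2-Eb1* higher (0.39 to 0.64 and 0.26 to 0.54) under every alternative run.

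The share of members was 14.4% on CD with a mitochondrial limit of 5%, 6.68% (HFD 2.18%) with 2 UMIs of each marker asked for, 13.5% with *Lyz1* limited as a share of UMIs, and 6.27% (HFD 3.42%) after thinning. The *Retnla* ratio on CD was -0.62 with the 5% limit, -0.25 with 2 UMIs, -0.18 with the *Lyz1* share, -0.47 thinned, -0.53 without top doublet scores and -0.38 as a mean over cells. After HFD it was -0.77 with the 5% limit, -0.87 with 2 UMIs, -0.67 with the *Lyz1* share, -1.53 thinned, -0.48 as a mean over cells, -0.62 with depth-matched weights and -0.76 without mitochondrial, ribosomal and *Malat1* UMIs. The *H2-Eb1* ratio was 0.43 on CD with the 5% limit, 0.62 (HFD 0.54) with 2 UMIs, 0.39 (HFD 0.26) thinned, 0.64 as a mean over cells and 0.50 with depth-matched weights.

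Counts of genes past 2-fold moved as follows. With 30 UMIs asked for, 124 were higher and 407 lower on CD, 286 and 688 after HFD, and 121 and 212 for HFD over CD in members; with no minimum, 913 and 580, 1155 and 642, and 1027 and 782. Thinned, 65 and 285 were higher and lower on CD and 553 and 789 after HFD. With 2 UMIs of each marker, 209 were lower on CD, and 273 higher and 796 lower after HFD. As a mean over cells, 163 were lower on CD and 45 for HFD over CD. After HFD 92 were higher with the 5% limit, 38 with the *Lyz1* share and 38 with depth-matched weights.

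Alternatives chosen after seeing the data left out cells with 10 or more haemoglobin UMIs or 3 markers of another type, or, gene by gene, the member with most UMIs, which lowers every member level by construction. The former gave *Retnla* ratios of -0.50 and -0.76. The latter gave *Retnla* ratios of -0.55 and -0.78, and 11 genes higher and 198 lower on CD and 21 and 415 after HFD.

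Directions turned for *Plac8* over other cells (CD -0.47 thinned; HFD -0.99 with 2 UMIs, -1.93 without the top member), *Plac8* HFD over CD (-0.59 without the top member), *Fcgr1* after HFD (-0.046 thinned), *Hbb-bt* after HFD (0.42 with the study's limits, 0.45 without the doubted cells) and, thinned, *Hba-a1* (0.55), *Ly6c2* (4.72) and *Mucl1* (0.58) for HFD over CD. The cause was not tested.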

Other observations

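Barcodes outside the limits on genes and mitochondrial UMIs included 109 of 2095 on CD and 33 of 1142 after HFD that met the marker part of the rule. Of these, 108 and 33 were over the mitochondrial limit, with medians of 17.2% and 15.2% mitochondrial UMIs and of 1246 and 965 UMIs per cell. *Retnla* was at 20010 and 21037 CPM in them and *H2-Eb1* at 5755 and 4938 CPM, below the kept members in both libraries.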
